A study of Mus musculus with 21 samples.

Results

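Nrxn3, Nlgn1, Fgf14, Cadps and Sort1 are neuronal genes listed as RNA targets of TDP-43, and their RNA was compared between TG and WT mice, in tissue that the labels name neocortex. They were taken by symbol from the deposited table, in which all 5 were found among 48474 rows, and all 5 were among the 18248 genes that had enough counts to be tested. TG mice are rNLS8 mice, which carry NEFH-tTA (line 8) together with tetO-hTDP-43ΔNLS (line 4), so that human TDP-43 without its nuclear localization signal is made under the neurofilament heavy chain promoter, mostly in neurons and in few oligodendrocytes. WT mice are littermates with no more than 1 of these transgenes, labelled WT, and all mice were on a C57BL/6J background. There were 11 WT and 10 TG mice in 2 independent cohorts, called batch A (4 WT and 3 TG) and batch B (7 WT and 7 TG). Every mouse of either genotype had been injected into a ventricle, at an age of 17 to 19 weeks, with a non-targeting antisense oligonucleotide (350 µg in a volume of 10 µL) and was fed doxycycline (200 mg/kg diet), which keeps the transgene off, for another 2 weeks. Doxycycline was then withdrawn and the mice were killed 3 weeks later, so that neither group was free of oligonucleotide or of earlier doxycycline. Each replicate is a mouse, numbered within its genotype. The study's methods name the tissue brain cortex, and a figure legend names hippocampus for rNLS8 mice of these group sizes.

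TDP-43 is an RNA-binding protein of the nucleus that binds UG-rich stretches, many of them deep inside long introns of neuronal genes, and it acts on splicing and on the amount of the mature RNA. When it is mislocalized to the cytoplasm, as in the brain in ALS and FTD, this nuclear work can be lost. Neurexin 3, from Nrxn3, is a presynaptic adhesion protein, and neuroligin 1, from Nlgn1, is a postsynaptic partner of neurexins at excitatory synapses. Fgf14 encodes an intracellular FGF homologous factor that binds voltage-gated sodium channels, Cadps encodes the priming factor CAPS1 of dense-core vesicles, and Sort1 encodes sortilin, a sorting receptor for progranulin, pro-neurotrophins and neurotensin.

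Of these genes, Nrxn3, Nlgn1, Fgf14 and Cadps are among the longest that were tested, and Sort1 is not. On GRCm38, Nrxn3 lies at chr12:88722701-90334935 (plus strand), spans 1612 kb and ranks 9th by span among 17255 tested genes with a known span. Nlgn1 lies at chr3:25421808-26332866 (minus strand) and spans 911 kb, Fgf14 at chr14:123974441-124677686 (minus strand) and spans 703 kb, and Cadps at chr14:12372560-12823339 (minus strand) and spans 451 kb. Their longest annotated introns measure 464 kb in Nrxn3, 473 kb in Nlgn1, 540 kb in Fgf14 and 107 kb in Cadps. Sort1 lies at chr3:108283974-108361519 (plus strand), spans 77.5 kb and has a longest intron of 24.04 kb, by which it ranks 3842nd among 16149 tested genes with an annotated intron. The label of long introns therefore holds for 4 of the 5 genes.

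Sort1 is known instead for an exon near its 3′ end whose inclusion TDP-43 represses. In the GENCODE annotation of GRCm38 this is the coding exon 18 of the 21 exons of transcript Sort1-203, at chr3:108355472-108355570, and Sort1-201 with 20 exons lacks it. The exon has 99 bp and lies between introns of 1230 and 660 bp. It is shown because the counts per gene analyzed here add the transcripts with and without it and cannot tell them apart. Capitals mark the exon and lower case the 15 bases of the exon on either side, in the order of the mature RNA:
Sort1 exon 18: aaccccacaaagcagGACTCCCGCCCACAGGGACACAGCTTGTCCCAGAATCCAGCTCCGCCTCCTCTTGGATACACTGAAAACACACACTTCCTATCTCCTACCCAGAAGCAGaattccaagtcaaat

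The mature RNAs were searched for the DNA letters GTGTGT on the transcript strand, the written form of the UG repeats that TDP-43 binds, in the longest coding transcript of each gene. Introns could not be searched, since no genome sequence was used here. Nrxn3 and Sort1 each held 3 separate runs, Cadps 2, Fgf14 1 and Nlgn1 none in a transcript of 11807 bases. The motif was common, with 58.3% of 21877 genes holding it, and in 92.6% of the 1503 transcripts within 20% of the length of that of Nrxn3. Runs of 10 bases were the longest found in these genes, and such runs occurred in 22.3% of transcripts of a length like that of Nrxn3 and in 10.4% of those like that of Fgf14. They are printed as the part of these RNAs that most resembles the known binding sequence, with the run in capitals, and both lie in the 3′ untranslated region, at chr12:90332960-90332989 (plus strand) and chr14:123979539-123979568 (minus strand):
Nrxn3: gttctgaccaGTGTGTGTGTaactttccaa
Fgf14: gtttctttatGTGTGTGTGTtttatacata

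Sequencing depth was even, with 20700912 to 22263809 reads counted on genes per mouse. At the threshold used throughout (adjusted p under 0.05 from edgeR's quasi-likelihood test with batch as covariate and Benjamini-Hochberg adjustment over all tested genes), 8154 genes differed between the genotypes, 23.0% of those tested being higher and 21.7% lower in TG mice. Scaled by library size only, 32.0% were higher and 15.1% lower, so the balance of directions rests on the scaling. Tardbp, the mouse gene of the protein whose human form the transgene encodes, was read first. Tardbp had 2253 to 2827 normalized counts in WT mice and rose by a log2 fold change of 0.62 (adjusted p = 1.50e-07) in TG mice. In batch B it was between 4405 and 5053 in TG mice, above every WT mouse. In batch A the TG mice 8, 9 and 10 had 3091, 2363 and 2903, so that the library labelled TG mouse 9 lay within the WT range. A further copy row of Tardbp exists in the table. Whether reads of the human transgene were counted on either row is not given in the sources used here. The rise can therefore not be assigned to the transgene or to the mouse gene. Nefl, the neurofilament light chain, was low in all TG libraries (3215 to 4775 normalized counts, against 8281 to 9373 in WT), with 3924 in TG mouse 9. In the normalized counts used here each count was divided by the mouse's TMM-scaled library size and brought back to the mean size, so they compare a gene between mice but not genes with each other.

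Of the 5 genes, Nrxn3, Sort1 and Nlgn1 were lower in TG mice past the threshold, Fgf14 and Cadps were not past it, and none was higher. Against the 21.7% of all tested genes that were lower, this was 3 of 5. The median log2 fold change of the 5 genes was -0.19, beside -0.00067 over all tested genes. Nrxn3 showed the steepest fall and Cadps the smallest difference, and the calls of Nrxn3 and Sort1 did not hang on any single mouse, whereas that of Nlgn1 did.

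**Figure D1:**
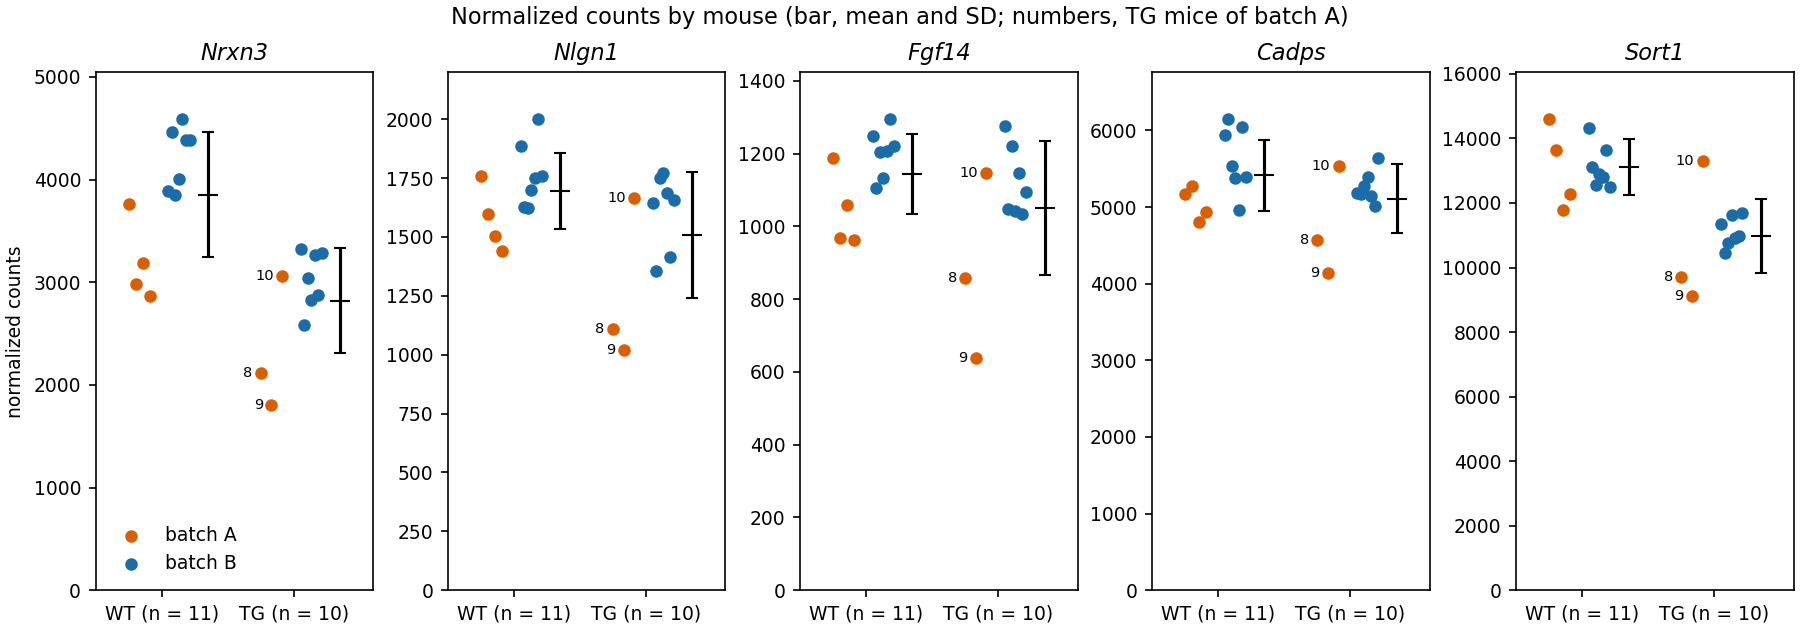
Normalized counts of the 5 genes in each of the 21 mice, with WT and TG mice on the horizontal axis, batch A in orange and batch B in blue; bars give the mean and SD of each genotype and the numbers name the TG mice of batch A. In batch B the TG mice lie below all WT mice for Nrxn3 (highest TG mouse 3322, lowest WT mouse 3854) and Sort1 (11681 and 12508), and TG mice 8 and 9 are the lowest of all mice in every panel.

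Nrxn3 had between 2863 and 4587 normalized counts in WT mice (median 3888) and between 1804 and 3322 in TG mice (median 2960). Every TG mouse was below the WT median, and 4 of 10 were below the lowest WT mouse. The WT mice themselves differed by batch, from 2863 to 3765 in batch A and from 3854 to 4587 in batch B, so the genotypes overlapped over all mice but not within batch B. Mean levels were 3853 ± 608 (SD, n = 11) in WT and 2819 ± 513 (SD, n = 10) in TG mice, a fold of 0.72 (95% interval 0.65 to 0.80). On the log2 scale Nrxn3 fell by 0.47 with a standard error of 0.073 (adjusted p = 1.05e-05, edgeR). In batch B alone it was -0.49 (adjusted p = 3.39e-06), and 8.10% of all tested genes had, like Nrxn3, every TG mouse below every WT mouse in this batch. In batch A alone, with TG values of 1804, 2116 and 3062, it was -0.44 (adjusted p = 0.119).

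Nlgn1, the postsynaptic counterpart, had 1441 to 1999 normalized counts in WT mice (median 1699) and 1022 to 1770 in TG mice (median 1650). The medians were close and the genotypes overlapped widely, and the lower mean of TG mice (1508 ± 269 against 1695 ± 161, SD, n = 10 and 11) owed much to TG mice 8 and 9, at 1110 and 1022. The log2 fold change of -0.19 (95% interval -0.34 to -0.04, adjusted p = 0.0371, edgeR) was just past the threshold. Without TG mouse 9 it was -0.14 (adjusted p = 0.0808), and the call was lost with any of 8 of the 21 mice left out. In batch B alone Nlgn1 had a log2 fold change of -0.14 (adjusted p = 0.0937) and in batch A alone of -0.29 (adjusted p = 0.259).

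Fgf14 had 963 to 1294 normalized counts in WT mice (median 1188) and 640 to 1275 in TG mice (median 1071). TG mouse 9 at 640 and TG mouse 8 at 858 lay below all WT mice, and the other TG mice lay between 1034 and 1275, within the WT range over both batches. Within batch B, where WT mice had 1105 to 1294, 4 of 7 TG mice lay below every WT mouse. The log2 fold change was -0.15 (95% interval -0.29 to 0.0022, adjusted p = 0.103, edgeR), a fold of 0.90.

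Cadps had 4802 to 6145 normalized counts in WT mice (median 5381) and 4137 to 5639 in TG mice (median 5175). All but TG mice 8 and 9 (4568 and 4137) were within the WT range, also within batch B. The log2 fold change was -0.09 (95% interval -0.19 to 0.0035, adjusted p = 0.111, edgeR), a fold of 0.94. For both Fgf14 and Cadps 1 mouse decided the call. Without TG mouse 10 the log2 fold change of Fgf14 was -0.20 (adjusted p = 0.0186) and that of Cadps -0.13 (adjusted p = 0.0177), and without it all 5 genes were lower past the threshold, beside 21.7% of all tested genes in the same fit. Without TG mouse 9 the log2 fold change of Fgf14 was -0.087 (adjusted p = 0.207), and with library size only that of Fgf14 was -0.069 and that of Cadps -0.017.

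Sort1 had 11785 to 14592 normalized counts in WT mice (median 12912) and 9116 to 13293 in TG mice (median 10943). Of the TG mice, 9 of 10 lay below the lowest WT mouse, and the exception was TG mouse 10 of batch A, at 13293. Means were 13108 ± 864 (SD, n = 11) and 10986 ± 1146 (SD, n = 10), a fold of 0.84 (95% interval 0.77 to 0.91). On the log2 scale Sort1 fell by 0.26 with a standard error of 0.055 (adjusted p = 4.71e-04, edgeR). The log2 fold change was -0.25 in batch B alone (adjusted p = 9.91e-05) and -0.27 in batch A alone (adjusted p = 0.267). In batch B every TG mouse lay below every WT mouse, as for 8.10% of all tested genes. These counts do not show whether the transcript with exon 18 or the one without it fell.

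Within the batches, 2 of the 5 genes (Nrxn3 and Sort1) were lower past the threshold in batch B, where 19.8% of all tested genes were, and none in batch A, where 4.83% were. The log2 fold changes in batch A and batch B had the same sign for each of the 5 genes. The interaction of genotype and batch passed the threshold for none of them, the smallest adjusted p being 0.879 for Nlgn1, and for 0.00% of all genes tested. At an unadjusted p under 0.05, 1030 of the 18248 genes had such an interaction, among them Tardbp (log2 difference A minus B of -0.56, p = 7.31e-06 and adjusted p = 0.133, edgeR) and none of the 5. The standard errors of these interactions, between 0.10 and 0.16 on the log2 scale for the 5 genes, set what could be detected with 3 TG mice in batch A.

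The TG mice of batch A were far apart from each other. Relative to the mean of the WT mice of its batch, TG mouse 9 had log2 ratios of -0.83 for Nrxn3, -0.62 for Nlgn1, -0.71 for Fgf14, -0.29 for Cadps and -0.52 for Sort1. In TG mouse 8 these were -0.60, -0.50, -0.28, -0.14 and -0.43, in the same order of genes. TG mouse 10 had ratios between -0.06 for Nrxn3 and 0.14 for Fgf14, and only Nrxn3 was below its batch's WT mean. In batch B each of the 7 TG mice was below the WT mean for Nrxn3 (log2 ratios from -0.71 to -0.35) and for Sort1 (from -0.33 to -0.17), and for 4 or 5 of the 5 genes. Without TG mouse 9, Nrxn3 had a log2 fold change of -0.43 (adjusted p = 1.4e-05, edgeR) and Sort1 of -0.23 (adjusted p = 8.65e-04), Nlgn1 was no longer past the threshold, and 22.4% of all tested genes were lower.

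**Figure D2:**
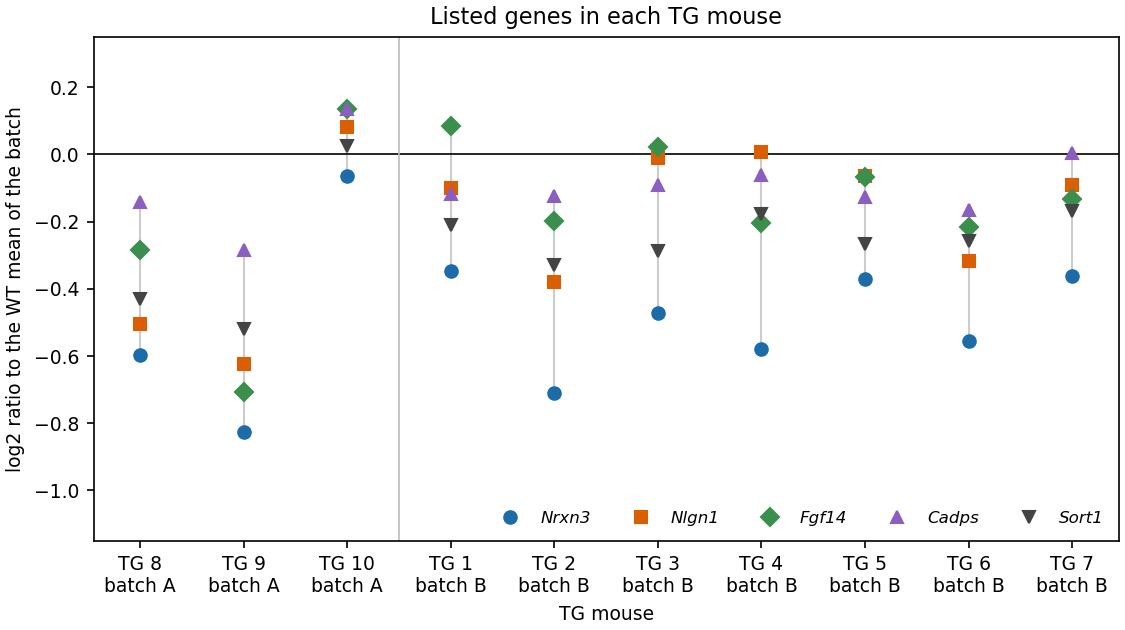
Log2 ratio of each TG mouse to the mean of the WT mice of its own batch (vertical axis) for the 5 genes, with the 3 TG mice of batch A left of the line and the 7 of batch B right of it; grey lines join the lowest and highest gene of a mouse. In TG mice 8 and 9 all 5 genes lie below 0 (lowest, Nrxn3 at -0.83 in mouse 9), in TG mouse 10 they lie between -0.06 and 0.14.

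Within genotype and batch, each pair of the 5 genes was positively correlated among the mice. After the mean of each genotype and batch was removed, Pearson's r between their log2 CPM (counts scaled to the TMM-adjusted library size, over 21 mice) ranged from 0.53 for Nrxn3 and Cadps to 0.85 for Nlgn1 and Sort1, and without TG mouse 9 from 0.31 to 0.81. These values are a description, since all genes of a mouse share its library and dissection. The spread of each of the 5 genes was widest in the TG mice of batch A. For Nrxn3 the SD was 28.1% of the mean there, against 9.25% in the TG mice of batch B. The r of typical gene pairs is not given here, so the values do not set the 5 genes apart from others. Among 12340 genes with a mean of at least 100 counts, the 3 most like Nrxn3 were Kcnd2 (r = 0.93), Cntn1 (r = 0.93) and Nalcn (r = 0.91), with spans of 514, 291 and 352 kb. For Fgf14 they were Rnf150 (r = 0.94, 228 kb), Gspt1 (r = 0.94, 38.1 kb) and Bpnt2 (r = 0.94, 30.8 kb), and for Nlgn1 Ipo7 (r = 0.94, 38.3 kb), Tmem132b (r = 0.93, 260.2 kb) and Gnai1 (r = 0.93, 95.3 kb). Cadps was followed most closely by Ppm1e (r = 0.90, 132 kb), Nmt2 (r = 0.88, 44.7 kb) and Dnajc6 (r = 0.88, 146 kb), and Sort1 by Synj1 (r = 0.97, 77.6 kb), Dyrk1a (r = 0.95, 126 kb) and Cyfip2 (r = 0.94, 119 kb). The genes most alike were thus long for Nrxn3 and of mixed length for the others. Likeness within a group did not mean a like difference between genotypes, with log2 fold changes of -0.65 (adjusted p = 5.47e-08) for Synj1 and 0.09 (adjusted p = 0.108) for Dyrk1a.

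Levels were compared between the genes per kb of annotated exon. In WT mice Sort1 stood highest with 1732 ± 114 normalized counts per kb (SD, n = 11), then Cadps with 360 ± 31, Nrxn3 with 306 ± 48, Fgf14 with 274 ± 26 and Nlgn1 with 126 ± 12. The neighbours Cadps and Nrxn3, and Nrxn3 and Fgf14, lay within their spread, and the other neighbours did not. In TG mice the order was Sort1 (1451 ± 151), Cadps (339 ± 30), Fgf14 (251 ± 44), Nrxn3 (224 ± 41) and Nlgn1 (112 ± 20), so that Nrxn3 and Fgf14 had changed places, within their spread. The exon lengths join all annotated transcripts, and a gene whose cortical transcripts use few of these exons is placed too low.

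Paralogs of the 5 genes did not follow a single pattern. Of 12 paralogs, 6 were lower and 1 was higher in TG mice, beside 21.7% and 23.0% of all tested genes, and their median log2 fold change was -0.19. The neurexin gene Nrxn2, of 114 kb and with a further copy row in the table, had a log2 fold change of -0.10 (adjusted p = 0.187, edgeR), and was past the threshold in batch B alone (-0.14, adjusted p = 0.0472) and without TG mouse 9 (-0.14, adjusted p = 0.0341). Of the other neuroligins, Nlgn3 was higher (log2 fold change 0.17, adjusted p = 0.0236), and Nlgn2, the neuroligin of inhibitory synapses, had 0.11 (adjusted p = 0.145). Nlgn2 had 0.055 without TG mouse 9, and with library size only it was past the threshold (0.18, adjusted p = 0.00708). The higher call of Nlgn3 was lost without TG mouse 10 (log2 fold change 0.11, adjusted p = 0.0665). Both are short genes, of 22.2 and 14.7 kb.

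Among the paralogs of Fgf14 and Cadps, Fgf13 and Cadps2 had larger differences than these genes themselves, without a test between them. Fgf13, another FGF homologous factor and 523 kb long, fell by 0.54 on the log2 scale (adjusted p = 7.00e-09, edgeR), and its 10 TG mice (1624 to 2062 normalized counts) all lay below its 11 WT mice (2441 to 3076). In batch B alone, 8.10% of all tested genes had every TG mouse below every WT mouse. This share was not computed over both batches. Fgf11 fell by 0.26 (adjusted p = 4.58e-04) although it spans 6.88 kb, and Fgf12, of 595 kb, had a log2 fold change of -0.12 (adjusted p = 0.0639). Fgf12 was past the threshold in DESeq2 with batch (adjusted p = 0.0486), with upper-quartile normalization (adjusted p = 0.0442) and with any of 5 of the 21 mice left out. Cadps2, the CAPS2 gene, of 578 kb, fell by 0.83 (adjusted p = 9.33e-09), with 826 to 1430 normalized counts in TG and 1543 to 2137 in WT mice. In TG mouse 10 Cadps2 had 1011 and Fgf13 had 1956 normalized counts, below all WT mice, whereas Cadps and Fgf14 in this mouse were within the WT range. Of the sortilin family, Sorl1 fell by 0.43 (adjusted p = 2.74e-05) and Sorcs3 by 0.26 (adjusted p = 0.00116), while Sorcs1 had a log2 fold change of 0.01 (adjusted p = 0.864) and Sorcs2 of -0.04 (adjusted p = 0.698).

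**Figure D3:**
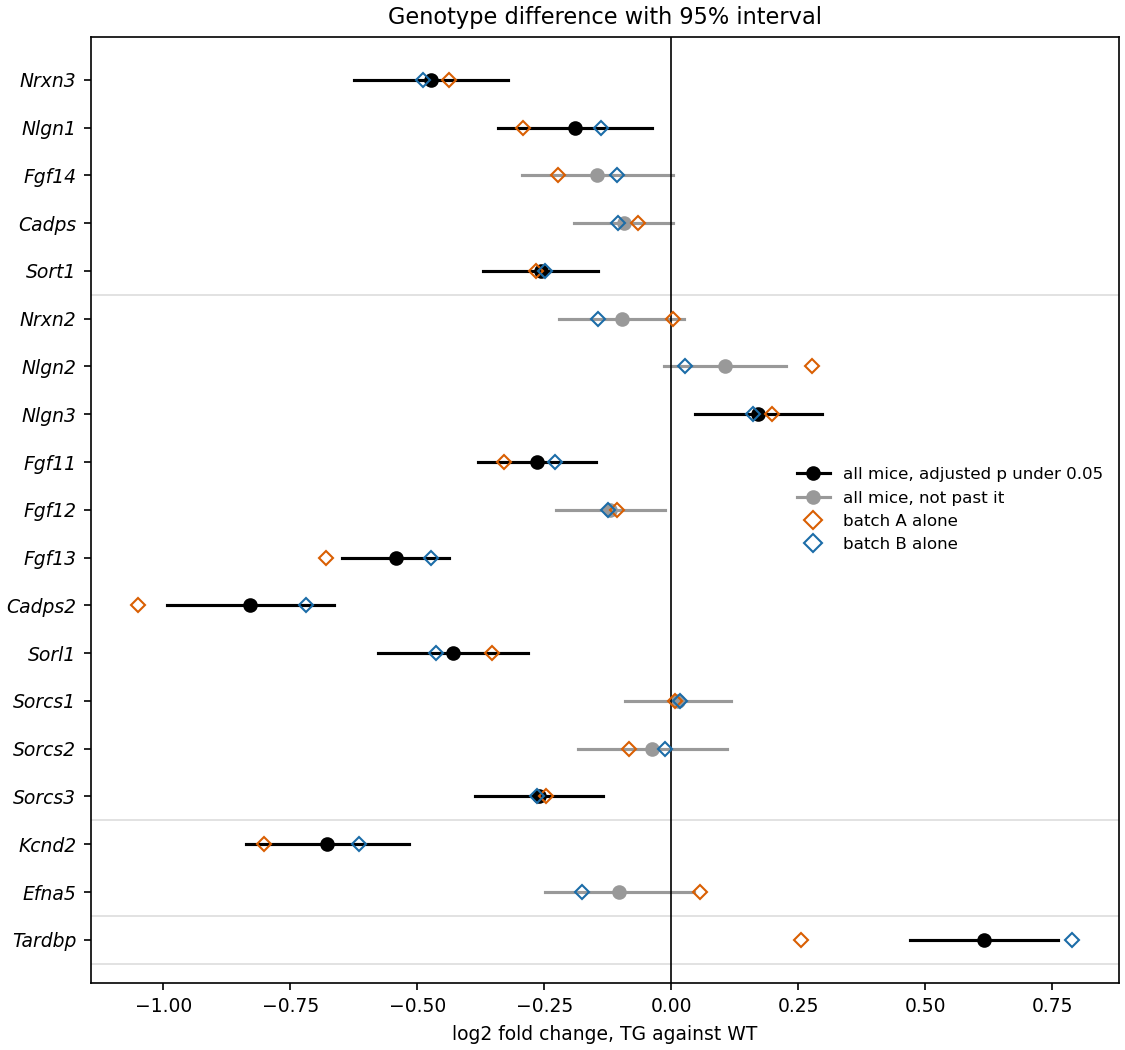
Log2 fold change of TG against WT mice (horizontal axis) for the 5 genes, their paralogs, further long genes and Tardbp; circles and lines give the estimate over all 21 mice with its 95% interval, black where the adjusted p was under 0.05, and open diamonds the estimate in each batch alone. Cadps2 (-0.83) and Kcnd2 (-0.68) lie further left than any of the 5 genes, of which Nrxn3 (-0.47) is the furthest.

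Of further long neuronal genes known as TDP-43 targets, Kcnd2, which encodes the potassium channel subunit Kv4.2, fell by 0.68 on the log2 scale (adjusted p = 1.40e-07, edgeR), from 1996 ± 298 to 1285 ± 294 normalized counts (SD). Its TG mice lay below its WT mice within each batch, as those of 8.10% of all tested genes did in batch B. This share was not computed for batch A. Efna5, the gene of ephrin-A5, had a log2 fold change of -0.10 (adjusted p = 0.254).

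Across all tested genes, the share called lower was larger in longer genes. It was 19.9% of 5356 genes under 10 kb, 18.7% from 10 to 50 kb, 27.1% from 50 to 100 kb, 30.2% from 100 to 200 kb, 36.5% from 200 to 500 kb and 43.5% of 216 genes over 500 kb. The share called higher was 23.8% under 10 kb and 5.09% over 500 kb. Nrxn3, Nlgn1 and Fgf14 belong to the class over 500 kb, whose median log2 fold change was -0.18, so that Nlgn1 (-0.19) and Fgf14 (-0.15) lay near the middle of genes of their own length and Nrxn3 (-0.47) lay below the lower quartile of this class, -0.32. Cadps, in the class from 200 to 500 kb, had -0.09 beside a median of -0.11, and Sort1, in the class from 50 to 100 kb, had -0.26 beside a median of -0.03 and a lower quartile of -0.20. With library size only the share lower was 14.3% under 10 kb and 31.9% over 500 kb, the share higher 31.8% and 7.41%, and from 100 to 200 kb the shares were balanced (20.74% lower and 20.96% higher). Without TG mouse 9 the share lower over 500 kb was 40.3%, and in batches A and B alone 13.4% and 38.9%. The median of genes over 500 kb, taken mouse by mouse relative to the WT mice of the batch, was -0.50 on the log2 scale in TG mouse 9, -0.27 in TG mouse 8 and -0.02 in TG mouse 10, and from -0.28 to -0.07 in the TG mice of batch B. In TG mouse 9 the median of genes under 10 kb was 0.16, the highest of any mouse. Whether RNA quality differed between these libraries was not tested.

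**Figure D4:**
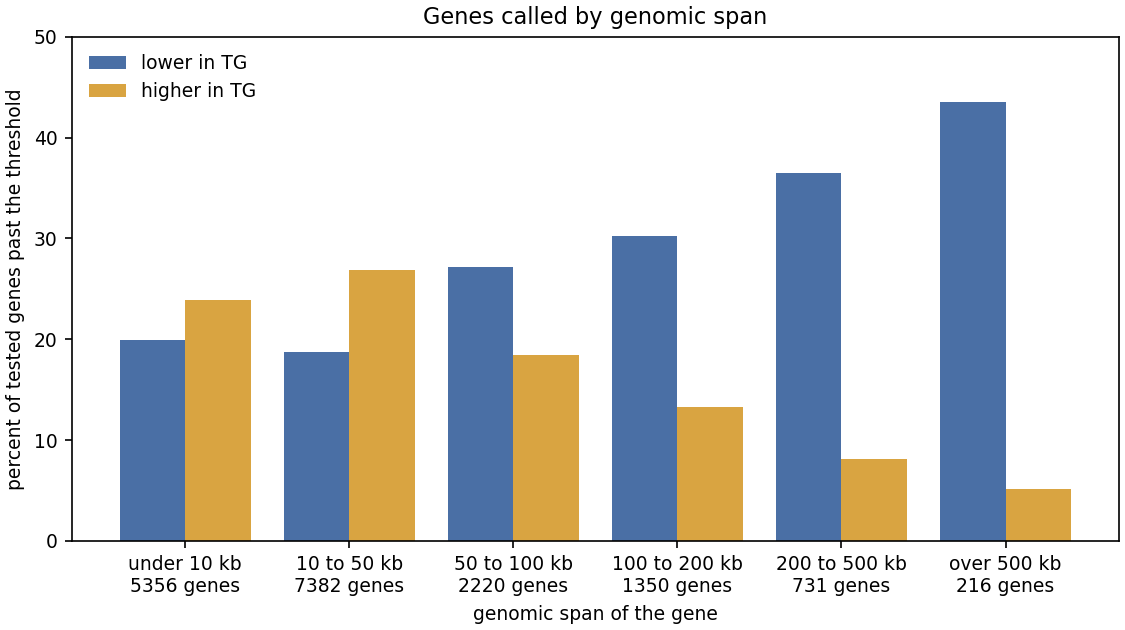
Percent of tested genes called lower (blue) or higher (yellow) in TG mice, by the genomic span of the gene in kb with the number of genes in each class. The share called lower is 19.9% under 10 kb and 43.5% over 500 kb, and the share called higher 23.8% and 5.09%.

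The proteins that neurexins and neuroligins bind are encoded by a list of 15 ligands, partners and inhibitors, of which 7 were lower and 1 was higher in TG mice (21.7% and 23.0% of all tested genes), with a median log2 fold change of -0.21. Cbln2, a secreted cerebellin that bridges neurexins to postsynaptic receptors, fell by 1.05 on the log2 scale (adjusted p = 1.15e-09, edgeR), and Cbln4 by 0.97 (adjusted p = 4.65e-05). The neurexin ligand Lrrtm3 fell by 0.44 (adjusted p = 1.43e-06). Dlg4, the gene of the scaffold PSD-95, fell by 0.31 (adjusted p = 6.89e-06), and a further copy row of Dlg4 exists. The higher gene was Adgrl1, a latrophilin, with 0.19 (adjusted p = 6.42e-04).

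Of 9 genes for sodium channel subunits, which FGF14 and its paralogs bind, and for the channel anchor Ank3, 6 were lower and 1 was higher (21.7% and 23.0% of all tested genes), with a median log2 fold change of -0.19. With library size only 5 were lower and 3 higher, beside 15.1% and 32.0% of all tested genes. Scn4b, an auxiliary subunit, fell by 1.13 on the log2 scale (adjusted p = 3.53e-04, edgeR), and its spread was wide in either genotype (4914 ± 1966 and 2484 ± 1321 normalized counts, SD). Scn2a, a pore subunit, fell by 0.39 (adjusted p = 5.58e-04), and the auxiliary subunits Scn3b and Scn2b by 0.27 (adjusted p = 1.25e-04) and 0.19 (adjusted p = 0.00121). In batch B alone no gene of this list was higher.

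The dense-core vesicle list, made of the release machinery CADPS works with, of granins and of peptide-processing enzymes, had 12 of 16 genes lower and none higher (21.7% and 23.0% of all tested genes), or 11 lower and 1 higher with library size only, with a median log2 fold change of -0.34. Its 4 smallest adjusted p-values belonged to release machinery that also serves synaptic vesicles. Snap25 fell by 0.75 on the log2 scale (adjusted p = 1.13e-11, edgeR), Stx1a by 0.71 (adjusted p = 5.47e-08), Vamp2 by 0.61 (adjusted p = 1.10e-08) and Unc13a, a priming factor related in role to CAPS1, by 0.57 (adjusted p = 8.62e-10). Cadps, at -0.09, had a smaller difference than each of these, without a test between them.

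The sortilin list of 15 ligands, co-receptors and trafficking genes was mixed, with 3 lower, a share near the 21.7% of all tested genes, and 6 higher, beside 23.0% of all tested genes, and a median log2 fold change of 0.01. Grn, whose product progranulin is taken up by sortilin, rose by a log2 fold change of 0.76 (adjusted p = 8.34e-10, edgeR), from 1084 ± 83 to 1830 ± 302 normalized counts (SD). The sorting adaptor Gga3 rose by 0.26 (adjusted p = 9.09e-05) and the mannose-6-phosphate receptor M6pr by 0.21 (adjusted p = 1.36e-04). Nts, the neurotensin gene, fell by 1.23 (adjusted p = 7.38e-04) from a low level of 70.5 ± 46.1 normalized counts (SD). In batch B alone 6, 6, 12 and 3 genes of the adhesion, sodium channel, dense-core vesicle and sortilin lists were lower, beside 19.8% of all tested genes, and in batch A alone 3, 1, 4 and 1, beside 4.83%.

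**Figure D5:**
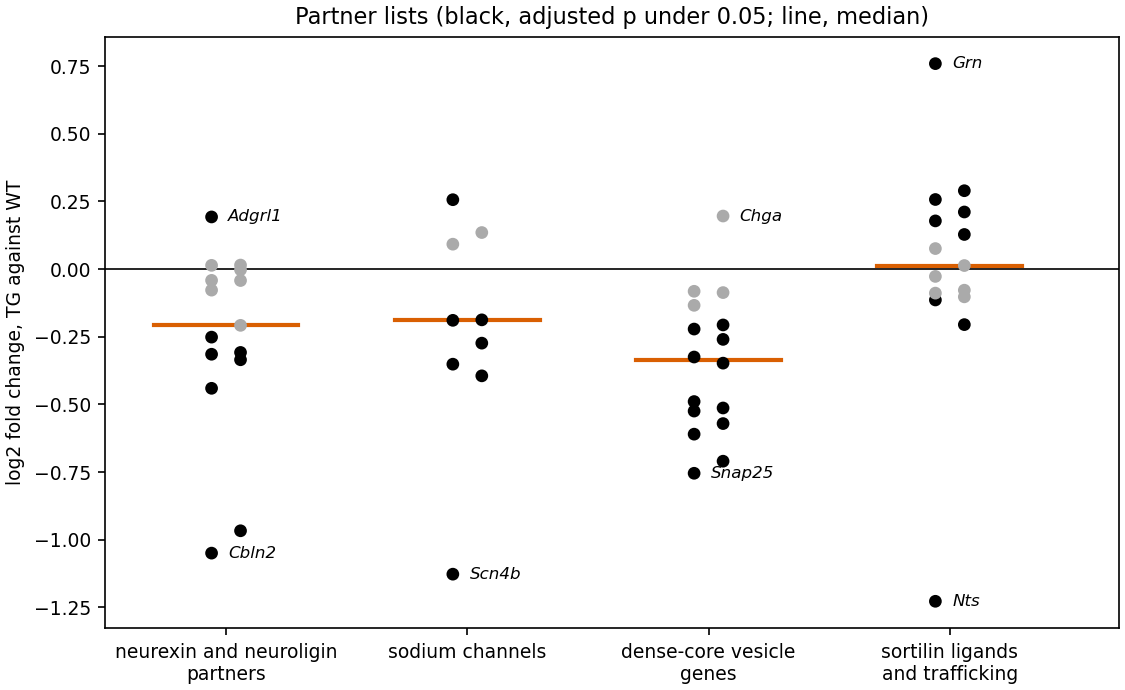
Log2 fold change of TG against WT mice (vertical axis) of each gene of 4 partner lists, black where the adjusted p was under 0.05 and grey otherwise, with the median of the list as an orange line and the lowest and highest gene named, where reported here. The medians are -0.21, -0.19, -0.34 and 0.01 from left to right.

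Neuronal markers moved with the genotype as well, and the counts of markers stand beside 21.7% of all tested genes lower and 23.0% higher. The summed normalized counts of 6 markers of all neurons were 88910 to 116400 in WT and 54860 to 76927 in TG mice, with 4 of 6 lower (Nefl, Snap25, Syt1 and Stmn2, of which Snap25 is also in the dense-core list) and Rbfox3 and Tubb3 not past the threshold. Of 4 excitatory markers 2 were lower and 1 was higher, with sums of 97616 to 154680 in WT and 73522 to 111400 in TG mice, and 3 of 3 inhibitory markers were lower, with sums of 9227 to 18338 and 6627 to 13157. Of 5 astrocyte markers 4 were lower and Gfap was higher (22927 to 29221 in WT and 22509 to 34002 in TG mice), and of 6 microglial markers 4 were higher and 1 lower (6705 to 7631 and 7014 to 9556). None of 5 oligodendrocyte or 2 precursor markers differed, and 1 of 3 endothelial markers (Flt1) was lower. No marker of a brain cell type was at 0. The liver markers Alb and Fgb had 23 and 4 counts over all 21 mice. The liver marker Apoa2 had 471, with means of 25.4 normalized counts in WT and 19.6 in TG mice. In whole tissue, fewer cells of a type and less RNA per cell cannot be told apart, and the part of these marker differences in those of the 5 genes was not tested.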

How the data were processed

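The tissue is neocortex in the labels, brain cortex in the study's methods and hippocampus in a figure legend. The labels and methods name RIN values above 7, mRNA libraries and paired-end reads of 100 bp, aligned to GRCm38 (mm10), and the submitters' processing notes list HISAT, HISAT2, Bowtie, Bowtie2 and RSEM without their roles. The program that made the counts is not given in the sources used here. The authors deposited raw counts, whole numbers of reads by gene symbol, which were analyzed as deposited. Reads carried no molecular identifiers. Of 48474 rows, 13329 had no count and 2536 were further copies of a symbol, with 4.11% of counts. In R 4.3.3, edgeR 4.0.16 was run with its filter by expression (minimum count 10, minimum total 15), TMM and a two-sided quasi-likelihood test with batch as covariate. The study's methods name DESeq2 and no covariate. DESeq2 1.42.0 was an alternative, beside no batch term, other scalings and filters, each batch alone, leaving out copy rows and leaving out each mouse. Leaving out TG mice 8 and 9 together was chosen after the data were seen. The difference between batches was tested as an interaction, and log2 CPM used a prior count of 2. Spans came from RefSeq GRCm38.p6, exons, introns and sequences from GENCODE M21. Members and gene lists were chosen with earlier results of these data known. Named were the members, Tardbp, all paralogs, further long targets, up to 4 partner genes per list by smallest adjusted p, markers and the 3 genes most like each member. The tests were run on simulated data first. Adgrl1 was named after its values were seen. Some genes of the lists are counted but not reported by name here.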

Additional observations from a re-analysis of the deposited data

Results flagged for a closer look

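In the 10 TG mice, the highest or lowest value of 37 named genes was compared with the others by Dixon's ratio of gap to range, whose 95% critical value for 10 samples is 0.466, and chance gives about 1 such gene in 20. A single mouse stood apart for 3 genes. Nlgn2 was high in TG mouse 9 (7908 normalized counts, others 5240 to 6586, ratio 0.496). Cbln4 was high in TG mouse 4 (413, others 128 to 247, ratio 0.583). Scn4b was high in TG mouse 1 (5547, others 910 to 3260, ratio 0.493). None of Nrxn3, Nlgn1, Fgf14, Cadps and Sort1 had a mouse that stood apart by this measure.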

How the results depend on the processing

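Nrxn3 and Sort1 stayed lower past the threshold under each alternative over both batches and without any 1 mouse, and in batch B alone. In batch A alone no listed gene passed (count 0), with log2 fold changes of -0.44 for Nrxn3, -0.29 for Nlgn1 and -0.27 for Sort1, and 2195 genes passed in all, from fewer mice. Nlgn1 lost its call in DESeq2 without batch (-0.17), edgeR without batch (-0.17), with library size only (-0.11), with no filter (-0.18), in batch B alone (-0.14) and without TG mice 8 and 9 (-0.089). The causes were not tested. Leaving out each mouse gave -0.24 to -0.14 for Nlgn1, with the call lost without TG mouse 2, 6, 8 or 9 (-0.17, -0.17, -0.16, -0.14) or WT mouse 1, 6, 8 or 9 (-0.18, -0.17, -0.17, -0.18), -0.20 to -0.09 for Fgf14, -0.13 to -0.07 for Cadps and 2 to 5 genes lower among the listed ones. Scaling by library size only moved the median of all genes by 0.08 and gave -0.40 for Nrxn3, -0.18 for Sort1, -0.069 for Fgf14 and -0.017 for Cadps. Signs turned for Sorcs2 with library size only (0.037), for Nrxn2 (0.0030) and Efna5 (0.057) in batch A alone, and for Sorcs1 without WT mouse 8 (-0.0019) and TG mouse 1 (-0.013), all far from the threshold. No paired analysis was possible because mice of the 2 genotypes are separate animals numbered by order only. Depth did not limit the listed genes, which held 23085 to 253142 counts each over all mice; the 3 TG mice limit batch A.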
